A study of Mus musculus with 8 samples.

Results

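Cytosolic ribosomal protein genes were examined in 8 RNA-seq libraries of mouse spinal dorsal horn, 4 from wild type and 4 from miR-96 knock-out mice. The genes were the protein-coding rows whose GENCODE M21 symbol begins with Rpl or Rps followed by a number, with the acidic stalk genes (Rplp0, Rplp1, Rplp2) and Rpsa included and symbols of pseudogenes left out. The rule used no expression value and gave 80 of 49585 genes, 49 of the large subunit and 31 of the small subunit. All animals were adult and of the strain C57BL/6J, and both groups were labelled by genotype alone, with no treatment. Polyadenylated RNA came from dissected dorsal horn of lumbar segments 4 to 6. The labels do not say how the knock-out allele was made, or whether the wild type mice were littermates. The design text speaks of 4 mice of each genotype, and the p-values below measure the spread between these 8 libraries. Rpl6l, Rpl32l and Rps4l, whose symbols fit the pattern, are annotated as pseudogenes and were not counted as members.

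Each ribosome carries 1 copy of nearly every ribosomal protein, and surplus copies that find no rRNA are degraded. The genes are scattered over the genome and are transcribed in step with each other and with rRNA. Many of their mRNAs begin with a terminal oligopyrimidine (TOP) tract, a cytidine at the very first base followed by an unbroken run of pyrimidines, through which mTORC1 and LARP1 hold the whole class back from, or release it to, translation. In neurons the same proteins serve the cell body and local translation in dendrites and axons. In nociceptive circuits of the dorsal horn, mTORC1 signalling to S6 kinase and the phosphorylation of ribosomal protein S6 are widely used as markers of activity.

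A TOP tract is a sequence feature that many of these genes share, so windows around annotated start sites are shown first. RefSeq promoter windows on GRCm38.p6 held 60 of the 80 genes. Each line below runs 5′ to 3′ from 40 bases before to 10 bases from the annotated start onward, and capitals mark a C followed by at least 4 of C or T that begins within 2 bases of that start. The first 6 genes carry such a run exactly at the annotated start, Rpl13a and Rpl7a carry it 2 bases after and 1 base before it, and the last 3 have none that begins within 2 bases.
Rpl38, chr11:114668540-114668589, plus strand: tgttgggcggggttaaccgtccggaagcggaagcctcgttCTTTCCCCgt
Rpl15, chr14:18270977-18271026, minus strand: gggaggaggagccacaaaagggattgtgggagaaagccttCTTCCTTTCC
Rpl35, chr2:39005122-39005171, minus strand: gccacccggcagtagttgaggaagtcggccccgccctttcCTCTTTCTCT
Rps6, chr4:86857358-86857407, minus strand: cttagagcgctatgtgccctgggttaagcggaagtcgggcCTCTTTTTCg
Rps10, chr17:27635235-27635284, minus strand: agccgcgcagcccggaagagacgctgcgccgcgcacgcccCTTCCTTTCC
Rps27, chr3:90213639-90213688, minus strand: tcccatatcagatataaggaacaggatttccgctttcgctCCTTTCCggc
Rpl13a, chr7:45128736-45128785, minus strand: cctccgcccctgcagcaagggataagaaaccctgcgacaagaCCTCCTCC
Rpl7a, chr2:26910767-26910816, plus strand: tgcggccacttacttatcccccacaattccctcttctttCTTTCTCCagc
Rplp0, chr5:115559427-115559476, plus strand: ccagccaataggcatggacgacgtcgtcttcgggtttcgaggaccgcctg
Rpl24, chr16:55966235-55966284, plus strand: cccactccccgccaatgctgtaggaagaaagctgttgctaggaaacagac
Rpl3l, chr17:24727786-24727835, plus strand: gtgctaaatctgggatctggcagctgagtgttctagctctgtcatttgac

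A pyrimidine run that starts with C at the annotated start was found in 13 of the 60 genes (21.7%), against 3.01% of 27025 genes in the whole promoter table. Allowing the C to lie within 2 bases of the start gave 21 of 60 (35%), against 10.6%. On either strand of the 300-base window, CCGGAA, the core bound by ETS factors, was present in 55% of the ribosomal protein genes and in 16.7% of all genes. GGGCGG, the core of SP and KLF sites, was in 60% against 38.2%, AAGATGGC, a YY1 core, in 8.33% against 3.19%, and TATAAA in 10% against 15.7%. These are matches of letters in annotated windows. Annotated starts can be off by several bases, and a window without a match says only that the letters are not in it.

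A microRNA pairs with 3′ UTRs mainly through its seed, so matches to the seed of the deleted microRNA were searched in these genes. RefSeq places the mature mmu-miR-96-5p on the minus strand of chr6:30169506-30169528, with its seed (bases 2 to 8) in capitals here.
mmu-miR-96-5p: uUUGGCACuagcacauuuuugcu
In the longest annotated 3′ UTR of each tested gene, GTGCCAA (pairing with bases 2 to 8) or TGCCAAA (bases 2 to 7 followed by A) occurred in 2 of 77 ribosomal protein genes (2.6%) and in 22.1% of 13156 tested protein-coding genes. Most of the UTRs are short: the median was 221 nt, against 1405 nt for all tested protein-coding genes. Among genes whose longest 3′ UTR was at most 500 nt, 0 of 55 ribosomal protein genes and 3.82% of 2538 protein-coding genes had a site. The only matches were in Rpl15, from base 219 after the stop codon, and in Rpl9, from base 439.
Rpl15: atatagtgtttGTGCCAAgtggtgttctg
Rpl9: cagatgcctaaTGCCAAAaatgaggatct
Both genes had a lower fitted level in the knock-out libraries (log2 fold changes of -0.23 and -0.36), and neither passed the test (limma's adjusted p = 0.620 for each). The fold changes were -0.17 and -0.18 without wild type replicate 1, a library that stood apart from the rest. Mir96 itself (chr6:30169446-30169551) was listed at 0 in all 8 libraries, and polyadenylated mRNA libraries do not hold the mature microRNA, so the deletion could not be checked here.

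The deposited values are FPKM, fragment counts scaled to transcript length and to the number of mapped fragments, and summed to between 575008 and 665648 over all genes of a library. Steps between low values put the depth at 31900000 to 43100000 fragments per library, with an assumed fragment length of 200 nt. Of the dorsal horn markers, Slc17a6 (excitatory neurons) was at 96.7 to 136 FPKM and Slc32a1 (inhibitory neurons) at 73.2 to 95.2 FPKM. Other markers were less even. Slc6a5 (inhibitory neurons) was at 62.8 FPKM in wild type replicate 1 and at 127 to 138 in the other 7 libraries. Wild type replicate 1 was highest in 8 of 16 tested excitatory and 6 of 14 tested inhibitory markers. Slc17a7, Grpr and Ptf1a were under 1 FPKM in every library. Wild type replicate 1 stood apart: it held the highest of 8 values in 30% of all 15061 tested genes. Its summed FPKM over 7 red blood cell markers was 199, against 5.96 to 39.5 in the other 7 libraries, and the main comparisons are given with and without it.

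Ribosomal protein mRNAs were among the abundant transcripts of the dorsal horn. Their summed level was 39818, 22538, 20705 and 17319 FPKM in wild type replicates 1 to 4 and 17527, 17230, 21327 and 18781 FPKM in knock-out replicates 1 to 4. As a share of all FPKM in a library this was 5.98, 3.75, 3.41 and 2.98% in wild type and 3.05, 2.99, 3.58 and 3.22% in knock-out. Wild type replicate 1 was far above the rest, and the other 7 libraries interleaved: in descending order they were wild type 2, knock-out 3, wild type 3, knock-out 4, knock-out 1, wild type 4 and knock-out 2. The wild type mean was 25095 ± 10051 FPKM (SD, n = 4) and the knock-out mean 18716 ± 1866 (SD, n = 4). Without wild type replicate 1 the wild type mean was 20187 ± 2648 (SD, n = 3). In bulk tissue, fewer cells rich in these mRNAs and less of the mRNAs per cell cannot be told apart.

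**Figure D1:**
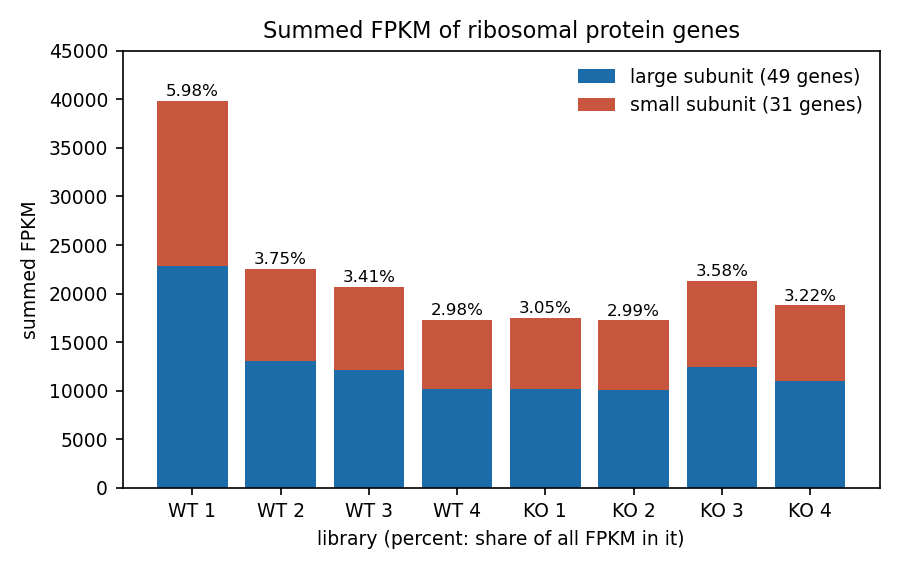
Summed FPKM of the 49 large-subunit genes (blue) and the 31 small-subunit genes (red) in each library, stacked, with the share of all FPKM in the library above each bar. Wild type replicate 1 reaches 39818 FPKM, and the other 7 bars lie between 17230 and 22538 with wild type and knock-out libraries intermixed.

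The subunits kept a fixed proportion while their level varied. The ratio of the large-subunit to the small-subunit sum was 1.35, 1.38, 1.42 and 1.42 in wild type replicates 1 to 4 and 1.37, 1.42, 1.41 and 1.41 in knock-out replicates 1 to 4. The group means were 1.39 ± 0.034 (SD, n = 4) in wild type and 1.40 ± 0.0222 (SD, n = 4) in knock-out, a difference smaller than the spread between libraries. Both subunits carried the same library-to-library pattern.

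Between the genotypes, no ribosomal protein gene passed the test. Of the 80 genes, 77 had a mean of at least 1 FPKM and were tested (46 large, 31 small), and 0 had an adjusted p under 0.05 by limma on log2(FPKM + 1), with Benjamini-Hochberg adjustment over all 15061 tested genes. That background was also 0% called. At an unadjusted p under 0.05 stood 2 of the 77, Rpl17 and Rpl27, where 5.52% of all tested genes did. All 77 had a lower fitted value in knock-out, against 46.9% of all tested genes. The median log2 fold change was -0.33 in the large and -0.35 in the small subunit, within a range of -1.27 to -0.02, while the median over all tested genes was 0.014. The lowest adjusted p from limma among them was 0.620.

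Much of this difference rested on 1 library. Wild type replicate 1 held the highest value in 75 of the 77 genes, against the 30% of all tested genes, and its value was 2.08 times the median of the other 7 libraries (median over the genes), from 1.13 times in Rpl7a to 2.86 times in Rps28. The corresponding median over all tested genes was 0.978. With that library left out, 70 of the 77 genes remained lower in knock-out and 7 were higher, where 49.6% of all tested genes were lower. The median log2 fold change became -0.11 in each subunit, and the median standard error went from 0.22 to 0.11. Rpl17 was then the only gene at an unadjusted p under 0.05, against 3.74% of all tested genes, and 0 were called by limma. The genes follow the library together, so their shared sign does not count as 77 separate observations.

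**Figure D2:**
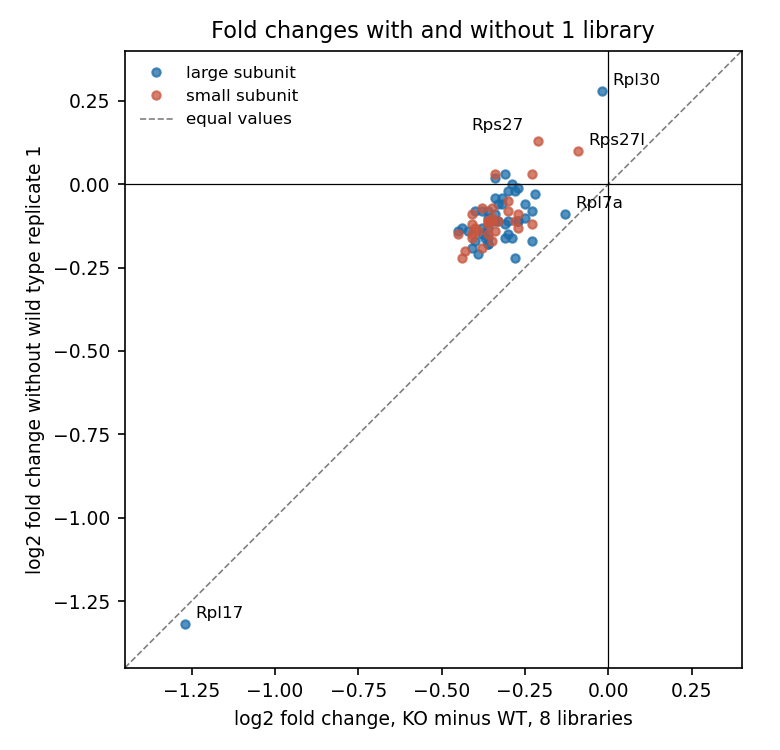
Log2 fold change (knock-out minus wild type, on log2(FPKM + 1)) of the 77 tested genes with all 8 libraries (horizontal) and without wild type replicate 1 (vertical), large subunit in blue and small in red, with a dashed line of equal values. Nearly all points lie above the dashed line, moving from a median of -0.34 to -0.11, and Rpl17 lies alone near -1.3 on both axes.

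In no ribosomal protein gene were all 4 knock-out libraries below all 4 wild type libraries, a separation seen in 1.12% of all tested genes. The overlap had a regular form. Knock-out replicate 3 was the highest knock-out library in 64 of the 77 genes, and wild type replicate 4 was the lowest wild type library in 74. Knock-out replicate 3 lay above wild type replicate 4 in 76 of 77. Wild type replicate 2 was the highest of the remaining 7 libraries in 66. These orders were not counted over all tested genes, so whether they are particular to the class cannot be said here.

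**Figure D3:**
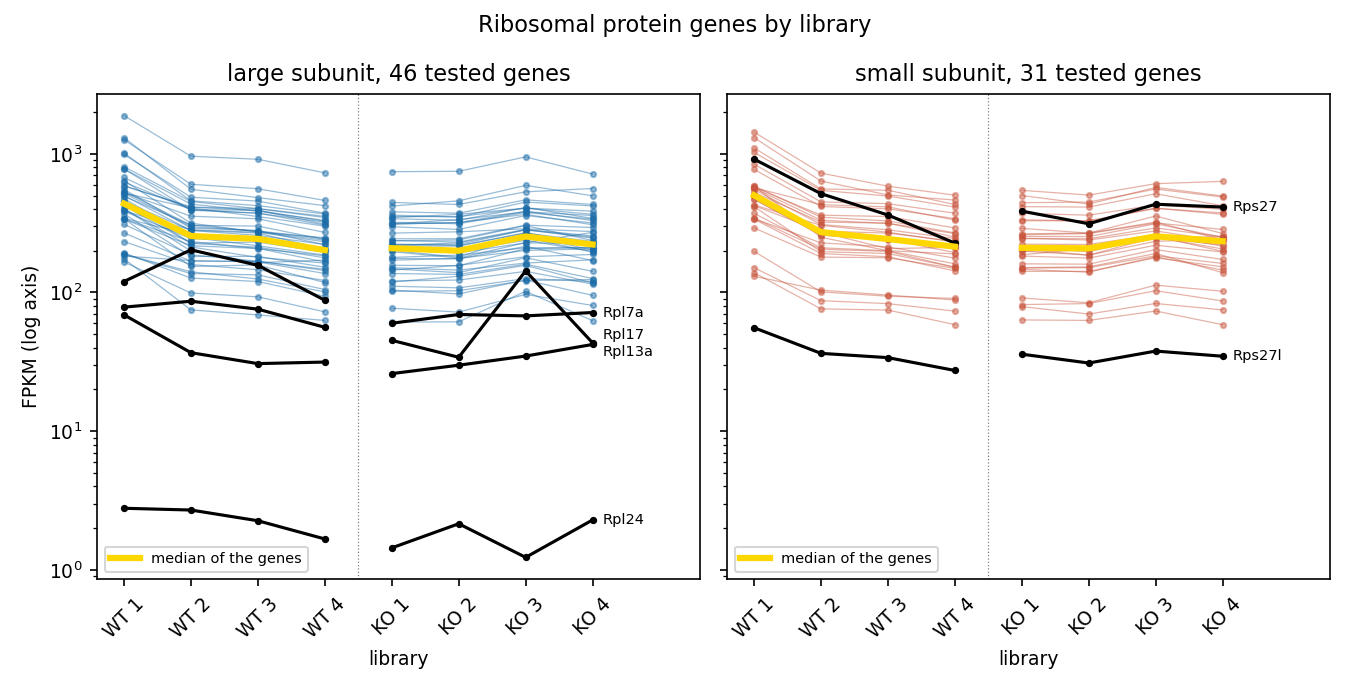
FPKM (log axis) of each tested large-subunit (left, blue) and small-subunit (right, red) gene in the 8 libraries, with the median of the genes in yellow and 6 genes that depart in level or pattern in black. The lines run nearly parallel, high in wild type replicate 1 and slightly raised in knock-out replicate 3, whereas Rpl17 crosses the others and Rpl24 lies far below them.

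The stalk proteins, which recruit the translation factors to the large subunit, showed the common pattern at high levels. Rplp1 was the most abundant of all, at 1886, 961, 913 and 729 FPKM in wild type replicates 1 to 4 and 743, 748, 950 and 714 in knock-out replicates 1 to 4. Rplp2, its partner in the stalk dimers, was at 499, 280, 258 and 222 in wild type and 217, 216, 270 and 219 in knock-out. Rplp0, the base on which the dimers sit, was at 343, 261, 250 and 199 in wild type and 202, 201, 249 and 196 in knock-out. In all 3 genes knock-out replicate 3 was level with wild type replicates 2 and 3, and the other 3 knock-out libraries were level with wild type replicate 4. With Rpl12, which binds at the stalk base, the log2 fold changes ran from -0.42 to -0.29, and from -0.16 to -0.11 without wild type replicate 1.

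Rpl5 and Rpl11 form a particle with 5S rRNA and, when ribosome assembly fails, bind MDM2 and release p53. Rpl5 was at 269, 168, 168 and 147 FPKM in wild type and 151, 145, 163 and 172 in knock-out, where knock-out replicate 4 exceeded 3 of the wild type libraries. Rpl11 was at 627, 395, 392 and 311 in wild type and 311, 320, 366 and 308 in knock-out. Their log2 fold changes were -0.22 (SE 0.17) and -0.36 (SE 0.19), with adjusted p of 0.633 and 0.620 from limma. Both were smaller with wild type replicate 1 left out, at -0.03 and -0.16.

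Rpl3, Rpl8 and Rpl10 reach toward the peptidyl transferase centre. Rpl3 was at 521, 407, 353 and 301 FPKM in wild type and 298, 285, 359 and 317 in knock-out. Taken relative to the median of all tested ribosomal protein genes in the same library, Rpl3 spanned 0.43 on the log2 scale over the 8 libraries and 0.09 over the 7 libraries other than wild type replicate 1. The 3 log2 fold changes lay between -0.34 and -0.30, or between -0.16 and -0.11 without that library. Rpl3 overlaps Syngr1, a gene on the other strand with a mean of 300 FPKM, and 15 of the 80 genes overlap a protein-coding gene on the other strand. Whether counting used strand is not given in the sources used here.

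Around the tunnel through which the new peptide leaves, 9 genes were tested (Rpl4, Rpl17, Rpl19, Rpl22, Rpl23a, Rpl26, Rpl31, Rpl35 and Rpl39). Apart from Rpl17 they followed the class. Rpl26 was at 778, 392, 374 and 306 FPKM in wild type and 321, 313, 378 and 338 in knock-out, and Rpl39, one of the smallest ribosomal proteins, at 475, 250, 217 and 186 against 201, 180, 259 and 230. Without wild type replicate 1 the log2 fold change of Rpl39 was -0.00.

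Rpl17, a protein at the tunnel exit, had the largest difference of the class. It was at 120, 203, 157 and 87.9 FPKM in wild type and 45.2, 34.1, 143 and 43.3 in knock-out. Of the knock-out libraries 3 lay below every wild type library, and knock-out replicate 3 lay above wild type replicates 1 and 4. The log2 fold change was -1.27 (SE 0.42, unadjusted p = 0.0127, limma's adjusted p = 0.620), and -1.32 (SE 0.49) without wild type replicate 1 (unadjusted p = 0.0255, not called by limma after adjustment). Relative to the class median of each library, Rpl17 spanned 2.11 on the log2 scale, where the median gene spanned 0.30.

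Ribosomal protein genes have many processed pseudogenes, and reads from a near-identical copy cannot be told apart by sequence. A search of annotated pseudogene transcripts found 446 copies of 69 of the genes (at least 95% identity over at least 80% of the coding sequence), 124 of them at a mean of 1 FPKM or more. For Rpl17, 12 copies held 63.9% of the joint level, most of it in Rpl17-ps10. The copies of Rpl17 summed to 345, 76, 114 and 156 FPKM in wild type and 211, 224, 129 and 221 in knock-out, and among the libraries other than wild type replicate 1 they were high where Rpl17 was low. Gene and copies together came to 465, 279, 271 and 244 FPKM in wild type and 256, 258, 273 and 264 in knock-out, close to the pattern of the class. The log2 fold change of the joint level was -0.21 (limma's adjusted p = 0.64), and -0.01 without wild type replicate 1 (limma's adjusted p = 0.981). This sum was chosen after the values had been seen.

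**Figure D4:**
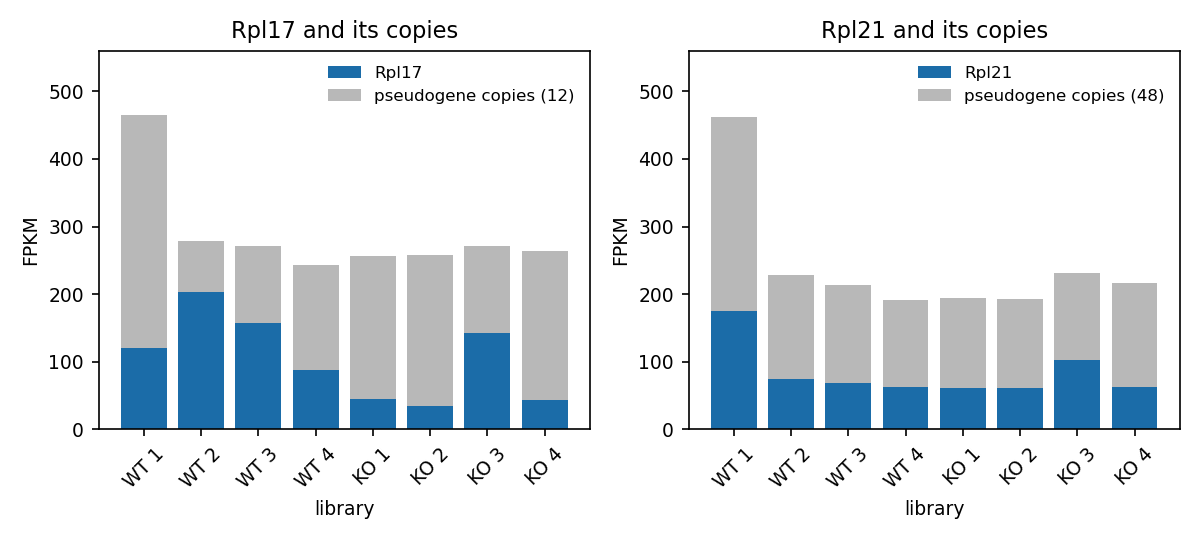
FPKM of Rpl17 (left) and Rpl21 (right) in blue and of their near-identical pseudogene copies in grey, stacked, by library. The blue part of Rpl17 runs from 34.1 to 203 FPKM, while the whole bar lies between 244 and 279 in every library other than wild type replicate 1, where it is 465.

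Rpl21 and Rpl24 were the other genes with more than 50% of the joint level in copies (65.3 and 78.8%). Rpl21 with its 48 copies came to 462, 229, 213 and 191 FPKM in wild type and 194, 193, 232 and 217 in knock-out. Over all 79 genes with a value above 0, the joint level was highest in wild type replicate 1 in 78. With copies added, all 77 tested genes again had a lower fitted value in knock-out, and 72 did without wild type replicate 1. In 26 genes the copies held more than 10% of the joint level, so a level given for a single gene is uncertain to that extent.

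Among large-subunit proteins at other sites, Rpl38, which is known for its part in translating Hox mRNAs in the embryo, was at 1308, 555, 483 and 423 FPKM in wild type and 446, 431, 532 and 562 in knock-out. Without wild type replicate 1 its log2 fold change was 0.02, and the genotypes overlapped over nearly the whole range. Rpl41, the shortest of the proteins, was at 1263, 603, 560 and 461 in wild type and 420, 458, 592 and 498 in knock-out (log2 fold change -0.45, or -0.14 without that library). Rpl27 had the second lowest unadjusted p of the class, with 525, 355, 340 and 271 FPKM in wild type and 268, 274, 288 and 275 in knock-out. Of its knock-out libraries, 1 lay below every wild type library and 3 lay above wild type replicate 4. Its log2 fold change was -0.39 (SE 0.17, unadjusted p = 0.0474, limma's adjusted p = 0.620), and -0.21 (SE 0.09) without wild type replicate 1.

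In the small subunit, Rps2, Rps3, Rps15 and Rps23 lie near the decoding centre or the channel by which mRNA enters. Relative to the class median Rps3 spanned 0.27 on the log2 scale over the 8 libraries and 0.06 over the 7 libraries other than wild type replicate 1, the narrowest span of any gene in those 7. Its FPKM were 341, 228, 213 and 177 in wild type and 183, 177, 219 and 196 in knock-out. Rps15 was at 1023, 545, 496 and 413 in wild type and 416, 413, 515 and 422 in knock-out, again with knock-out replicate 3 apart from the other knock-out libraries. The 4 log2 fold changes lay between -0.40 and -0.27, and between -0.13 and -0.09 without wild type replicate 1.

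At the mRNA exit side, Rpsa, Rps14, Rps26 and Rps28 had log2 fold changes of -0.38 to -0.34. Rpsa, which also occurs as a laminin receptor, was at 574, 361, 353 and 292 FPKM in wild type and 290, 268, 356 and 266 in knock-out. Knock-out replicates 2 and 4 lay below every wild type library, knock-out replicate 1 was level with wild type replicate 4, and knock-out replicate 3 was level with wild type replicate 3. The difference was -0.38 (SE 0.19, limma's adjusted p = 0.620), and -0.19 without wild type replicate 1. Rps28 was at 585, 250, 200 and 190 in wild type and 205, 186, 234 and 242 in knock-out, and its fold change without that library was 0.03.

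Rps6, the substrate of S6 kinase, was at 569, 430, 414 and 333 FPKM in wild type and 329, 329, 406 and 366 in knock-out. The excess in wild type replicate 1 (1.56 times the median of the other libraries) was among the smaller ones. Its log2 fold change was -0.27 (SE 0.16, limma's adjusted p = 0.620), and -0.13 without that library. Rps27a, made as a fusion with ubiquitin, was at 507, 272, 207 and 212 in wild type and 187, 207, 254 and 198 in knock-out (log2 fold change of -0.41 with SE 0.26, or -0.12 without wild type replicate 1). These mRNA levels say nothing of S6 phosphorylation, which was not measured.

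Among genes mutated in Diamond-Blackfan anaemia, Rps19, the one most often affected, was at 416, 197, 191 and 152 FPKM in wild type and 150, 151, 184 and 162 in knock-out. Its log2 fold change of -0.45 (SE 0.26, limma's adjusted p = 0.620) was the lowest of the small subunit. Rps24, Rps7 and Rps10 lay between -0.41 and -0.34, and the 4 genes between -0.16 and -0.11 without wild type replicate 1. Rps14, deleted in the human 5q- syndrome, was at 1103, 558, 546 and 431 in wild type and 444, 449, 557 and 488 in knock-out. The red blood cell markers were also highest in wild type replicate 1: all 4 of those tested had their maximum there, with Hba-a1 at 69.8 FPKM against 1.27 to 14.3 elsewhere. Their part in the ribosomal protein values was not tested.

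The most abundant small-subunit genes were Rps29, Rps21 and Rps14. Rps29, one of the shortest, was at 1435, 726, 584 and 503 FPKM in wild type and 545, 504, 609 and 633 in knock-out. Rps21 was at 1307, 636, 505 and 464 in wild type and 500, 434, 572 and 496 in knock-out. Both had wild type replicate 1 about 2.5 times above the median of the other libraries (2.46 and 2.61 times) and no separation of genotypes among the rest.

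A few genes left the common order. Rpl30 was at 402, 199, 164 and 171 FPKM in wild type and 197, 177, 229 and 271 in knock-out, and had the smallest difference of the class (log2 fold change of -0.02 with SE 0.27). Without wild type replicate 1 it was higher in knock-out by 0.28 (SE 0.14, unadjusted p = 0.0803 from limma, not called). Near-identical copies of Rpl30, 10 in number, held 26.2% of its joint level. These copies summed to 236, 95.4, 128 and 41.9 FPKM in wild type and 13.1, 58.8, 34.2 and 36.9 in knock-out. Gene and copies together came to 638, 295, 292 and 213 in wild type and 210, 235, 263 and 308 in knock-out. Rps27 was at 916, 516, 362 and 227 in wild type and 386, 313, 433 and 413 in knock-out, with its wild type values spread over a wider range than those of its neighbours. Rpl7a was 1 of the 2 genes whose highest value was not in wild type replicate 1, at 78.4, 86.5, 75.8 and 56.1 in wild type and 60, 69.4, 67.8 and 71.7 in knock-out. Rpl17, the other one, was highest in wild type replicate 2. Near-identical copies of Rpl7a, 23 in number, held 25.2% of its joint level. Rpl7a and its copies together were highest in wild type replicate 1, at 123 FPKM against 73.4 to 110 in the other libraries.

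Beyond such genes the proportions within the class were stable. Relative to the class median of each library, the median gene spanned 0.30 on the log2 scale over the 8 libraries and 0.21 without wild type replicate 1. Of the 77 genes, 71 spanned less than 0.5 in those 7 libraries. The other 6 were Rpl17 (2.11), Rpl24 (0.83), Rpl30 (0.82), Rps27 (0.79), Rpl13a (0.57) and Rpl21 (0.54). Each span was taken against the median of these same genes, and spans were not computed over all tested genes. Whether such spans are particular to the class cannot be said here.

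Paralogs with restricted expression were at or near 0. Rpl3l, the counterpart of Rpl3 in heart and skeletal muscle, was at 0.919, 0.362, 0.516 and 0.514 FPKM in wild type and 0.322, 0.403, 0.489 and 0.757 in knock-out. Rpl10l, the testis counterpart of the X-linked Rpl10, was listed at 0 in all 8 libraries, and Rpl39l at 0 in all but knock-out replicate 1 (0.0367). These 3 were under the level at which genes were tested. Rps27l, a p53-responsive paralog of Rps27, was tested, at 55.7, 36.4, 33.9 and 27.4 in wild type and 35.9, 31, 37.8 and 34.7 in knock-out. Its log2 fold change was -0.09 (SE 0.18, limma's adjusted p = 0.843), and 0.10 without wild type replicate 1.

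Rpl24 stood far below the other core genes, at 2.78, 2.70, 2.26 and 1.67 FPKM in wild type and 1.44, 2.15, 1.23 and 2.29 in knock-out, or about 24.9 fragments in its lowest library. Its 3 near-identical copies summed to 4.89 to 17.3 FPKM, more than the gene itself, and the gene overlaps Gm28037 on the same strand, which was listed at 0. Rpl13a was also low for its class, at 69, 36.8, 30.7 and 31.5 in wild type and 26, 29.9, 34.8 and 42.2 in knock-out, and it overlaps the read-through gene Gm45713, listed at 0. How reads were shared among overlapping annotations is not given in the sources used here, and its part in the levels of these 2 genes was not tested. Introns of ribosomal protein genes often host small nucleolar RNAs, and 29 of the 80 genes contain an annotated one on the same strand.

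In the genome the 80 genes were spread over nearly all chromosomes, with 14 on chromosome 7 and 7 each on chromosomes 9, 11 and 17. On the X chromosome were 4 (Rpl10, Rpl36a, Rpl39 and Rps4x). Rps4x, the small-subunit gene of lowest p, was at 423, 277, 268 and 234 FPKM in wild type and 223, 222, 261 and 216 in knock-out (log2 fold change of -0.35 with SE 0.17, unadjusted p = 0.0674, limma's adjusted p = 0.620), with knock-out replicate 3 within the wild type range and the other 3 below it. The fold change without wild type replicate 1 was -0.17 (unadjusted p = 0.0924 from limma).

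The excess in wild type replicate 1 was larger for shorter coding sequences. Genes of the class with a coding length under 300 nt were 2.46 times the median of the other libraries (median of 9 genes), those of 300 to 450 nt 2.09 times (27 genes), of 450 to 600 nt 2.02 times (18), of 600 to 900 nt 1.9 times (19) and of 900 to 1500 nt 1.67 times (4). Other protein-coding genes had the same gradient at a lower level, 1.52, 1.42, 1.29, 1.19 and 1.03 times in the same bins. Across the 77 genes Spearman's rho between excess and coding length was -0.50, and it was -0.55 across all 13209 tested protein-coding genes; genes of 1 library are not independent, and no p is given. In the genotype comparison rho between log2 fold change and coding length was 0.13 over the class with all libraries and -0.48 without wild type replicate 1, against 0.54 and 0.36 over all protein-coding genes. The part of transcript length or RNA quality in these values was not tested.

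**Figure D5:**
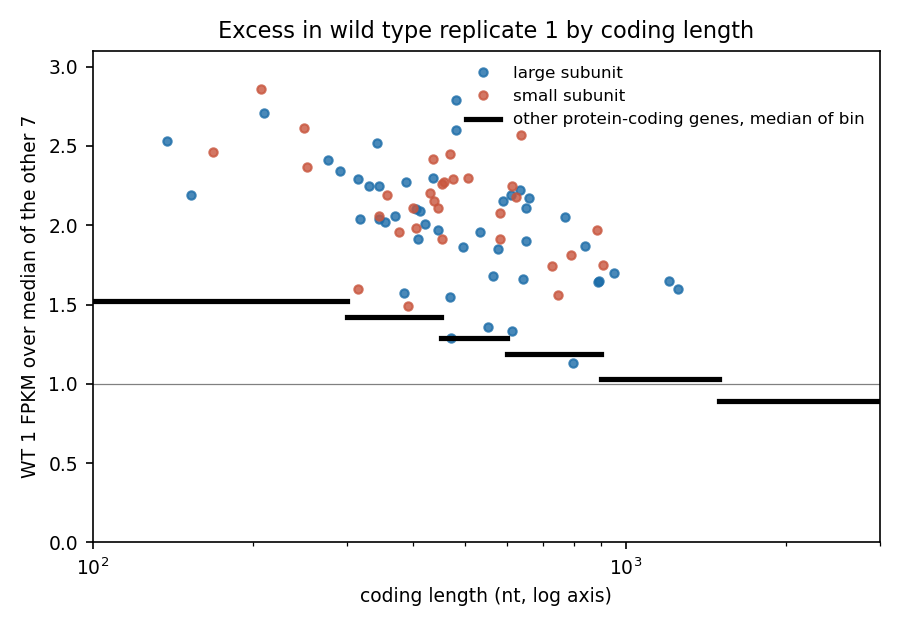
FPKM in wild type replicate 1 divided by the median of the other 7 libraries, for each tested gene of the large (blue) and small (red) subunit, against coding length (log axis). Black bars are medians of other protein-coding genes in bins of coding length. Both fall with length, and most coloured points lie above the bars.

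Genes that work with the ribosome were read from the same test. None of 40 initiation, elongation, termination and poly(A)-binding factors was called. Of these, 27 had lower and 13 higher fitted values in knock-out, and the median log2 fold change was -0.09 (-0.05 without wild type replicate 1). Eif3f, a subunit of the scaffold initiation factor eIF3, was at 141, 105, 109 and 91.2 FPKM in wild type and 86.1, 90.6, 103 and 76.8 in knock-out (log2 fold change of -0.31 with SE 0.14, unadjusted p = 0.0476, limma's adjusted p = 0.620). Eif3i, of the same complex, had -0.30 (SE 0.13). These were -0.20 and -0.21 without wild type replicate 1. Eef1a1, the elongation factor that delivers aminoacyl-tRNA and a classical TOP mRNA, was at 1487, 1392, 1330 and 1124 in wild type and 1128, 1078, 1385 and 1176 in knock-out, an excess in wild type replicate 1 of 1.26 times.

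Of 19 other TOP mRNAs and ribosome-bound proteins 0 were called, 15 were lower and 4 higher, with a median of -0.19, or -0.02 without wild type replicate 1. Fau encodes a ribosomal protein as a fusion with a ubiquitin-like protein, under a symbol outside the naming pattern. Fau followed the class closely, at 671, 331, 305 and 259 FPKM in wild type and 258, 264, 310 and 304 in knock-out. Rack1, the scaffold on the small-subunit head, was at 135, 96.3, 98.3 and 80.3 in wild type and 76.1, 73.1, 94.5 and 70.1 in knock-out. With all 8 libraries its log2 fold change was -0.37 (SE 0.16, unadjusted p = 0.0420, limma's adjusted p = 0.620). It was -0.23 without wild type replicate 1. Snhg8, a TOP-containing host gene of a small nucleolar RNA, was at 60.7, 32.4, 28.9 and 27.8 in wild type and 21.2, 21.9, 28.6 and 33 in knock-out.

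Ribosome biogenesis factors, which assemble the subunits in the nucleolus, were evenly divided. Of 57 tested, 0 were called, 29 were higher and 28 lower in knock-out, with a median log2 fold change of 0.00 with and without wild type replicate 1. Nvl, an ATPase that releases large-subunit precursors, was at 13.8, 15.7, 16.7 and 21 FPKM in wild type and 22.5, 23.3, 19.3 and 20.4 in knock-out (log2 fold change of 0.34 with SE 0.13, unadjusted p = 0.0223, limma's adjusted p = 0.620). Imp3, of the U3 small nucleolar particle, had -0.35 (SE 0.16), or -0.22 without wild type replicate 1. Among 21 genes of mTORC1, S6 kinase and MYC control, 0 were called and 14 were higher, with a median of 0.06. Mycn, under 2 FPKM in every library, had a log2 fold change of 0.36 (SE 0.16, unadjusted p = 0.0503, limma's adjusted p = 0.620). It was 0.23 without wild type replicate 1. Mycl had a log2 fold change of -0.17 (SE 0.09). Summed over a library, the biogenesis factors ran from 1437 to 1634 FPKM, with the highest sum again in wild type replicate 1.

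Mitochondrial ribosomal protein genes, which serve a separate ribosome, also had mostly lower fitted values in knock-out. Of 77 tested, 0 were called, 72 were lower and 5 higher, the median log2 fold change was -0.20 (-0.09 without wild type replicate 1), and 63 had their highest value in wild type replicate 1. Mrpl34 had the lowest p of them, at 69.3, 47.9, 48.2 and 40.3 FPKM in wild type and 36, 36, 40.7 and 41.1 in knock-out. With all 8 libraries its log2 fold change was -0.38 (SE 0.15, unadjusted p = 0.0270, limma's adjusted p = 0.620). It was -0.23 without wild type replicate 1. Mrps34 had -0.20 (SE 0.09).

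Cell type markers gave the following values beside these results. None of the 14 marker lists had a called gene. Oligodendrocyte markers summed to 15986 FPKM in wild type replicate 1 and to 9967 to 12190 in the other 7 libraries. Excitatory and inhibitory neuron, oligodendrocyte precursor, astrocyte, microglia, and endothelial and mural markers also had their highest sum there. Microglia markers were at 298 against 178 to 248, and astrocyte markers at 4094 against 3539 to 4079. Motor neuron, meningeal fibroblast, Schwann cell and ependymal markers had their highest sum in other libraries. Neutrophil and lymphocyte markers were at 14.5 in wild type replicate 1, 25.9 in wild type replicate 2 and 26.4 in knock-out replicate 2, against 0.904 to 5.67 elsewhere. Of 10 tested hepatocyte markers, 9 had an unadjusted p under 0.05 in limma, where 5.52% of all tested genes did. A higher fitted value in knock-out was seen in 9 (median 1.49 over those tested). Hp, Ambp, Hpx, Serpina1e, Ahsg and Ttr passed the filter only through their knock-out libraries, as their wild type means were 0.184 to 0.48 FPKM. The filter thus favours markers that are higher in knock-out in this count. Serpina1a, Fga, Fgb and Fgg, which were under the filter, also had higher means in knock-out. The hepatocyte list summed to 39.7 to 170 FPKM in wild type, the highest in replicate 1 through Trf (156), and to 74.7 to 118 in knock-out. Trf made up most of each wild type sum, at 156, 39.6, 44.1 and 37.2, against 35.8, 38.4, 43.5 and 47 in knock-out. It was the 1 tested marker of the list with a lower fitted value in knock-out (-0.45). Alb was at 3.69, 5.94, 0.0303 and 0.0301 in wild type and 11.7, 20.7, 33 and 27.1 in knock-out. No gene of the red blood cell, leukocyte or hepatocyte lists was at 0 in all libraries, and the part of any of them in the ribosomal protein values was not tested.

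Under 1 alternative the count of called ribosomal protein genes was not 0. When limma estimated a weight for each library, 10 of the 77 ribosomal protein genes were called, all lower in knock-out, among them Rpl11, Rpl17, Rpl27, Rplp0 and Rps4x, and 10.8% of all tested genes were called with them. The median log2 fold change was -0.22 in both subunits in that fit.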

How the data were processed

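The authors deposited FPKM per gene for each library, with gene identifiers and loci. HISAT2, SAMtools, Cufflinks and the build mm8 are listed in the submitters' processing notes, but 67 of the 80 loci equalled GENCODE M21 loci on GRCm38, so gene positions are GRCm38. The treatment of multi-mapped reads and of strand is not given in the sources used here. Per the labels' protocols, libraries were made from 1 µg of total RNA with a NEBNext Ultra kit.

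From the FPKM, log2(FPKM + 1) of genes with a mean of at least 1 FPKM was fitted with limma 3.58.1 in R 4.3.3 (trend and robust options, two-sided), with Benjamini-Hochberg adjustment over all tested genes and a threshold of 0.05. A fold change on this scale understates that of low genes. The script was tested on simulated data. Depth was estimated from whole-fragment steps in single-transcript genes of at least 3000 nt; 96.9 to 98.1% of low values lay within 0.15 of a whole number, where 30% would by chance. Pseudogene copies were found with blastn 2.17.0. Promoter and microRNA sequences are from RefSeq on GRCm38.p6, 3′ UTRs from GENCODE M21. Protein sequences were not used here.

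Named genes were those with a listed role, in each subunit the 3 of lowest p, of highest mean and of largest and smallest difference, those under the filter, those with an outlying library other than a high wild type replicate 1, and the 2 of lowest p in each pathway list; Rpl15, Rpl24, Rpl36a, Eef1a1, Fau, the pseudogenes and single cell type markers were named after their values were seen. The genes and lists were chosen with earlier results of these data known. Alternatives were other pseudocounts, filters, normalizations, variance models, length and GC corrections, a replicate block and leaving out each library. Some members and listed genes are not reported here by name.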

Additional observations from a re-analysis of the deposited data

Results flagged for a closer look

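Within a genotype of 4 libraries, a library was singled out where its gap to the nearest other took up more of the whole range than Dixon's 95% limit allows, which chance does in about 1 in 20 groups. Among the 77 tested ribosomal protein genes, wild type replicate 1 met this in 10 and a knock-out library in 12. These genes rise and fall together, so the counts are not independent. The rule was not run over all tested genes, so whether the counts are particular to the class cannot be said.

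Knock-out replicate 3 was the high library of its group in Rpl13 (304 FPKM), Rpl17 (143), Rpl21 (102), Rpl31 (410), Rpl9 (215), Rplp0 (249), Rplp1 (950), Rplp2 (270), Rps15 (515), Rps23 (292), Rps4x (261) and Rps9 (313). Of the genes named, wild type replicate 1 was the high library in Rpl13a (69 FPKM), Rpl21 (175), Rpl30 (402), Rpl38 (1308), Rps24 (842), Rps28 (585) and Snhg8 (60.7), and the low one in Mycn (0.392). The red blood cell markers summed to 199 FPKM in wild type replicate 1, and in knock-out replicate 3 to 20.5, within the 5.96 to 39.5 of the other libraries.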

How the results depend on the processing

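Under every alternative the median log2 fold change of each subunit was below 0. Quantile normalization gave -0.20 and -0.22 (large and small), removal of each library's length trend -0.21 and -0.24, and of length and GC trends -0.19 and -0.22. Length in these fits was that of the longest annotated transcript, not the coding length used above. These lengths can differ widely, as in Rps15a (5179 and 390 nt). Removal of a trend by coding length was not tested. Leaving out 1 library in turn gave -0.47 (without wild type replicate 4) to -0.11 (without wild type replicate 1) in the large and -0.51 to -0.11 in the small subunit. Without wild type replicate 4, 50 of the 77 genes reached an unadjusted p under 0.05, and 3151 of all 15061 did, with 0 called by limma. Called genes numbered 0 in all alternatives except library weights (1627 genes, 10 of them ribosomal) and the fit without knock-out replicate 2 (0 to 1 over the fits leaving out a library, 0 of them ribosomal). Single named genes changed sign: Rpl30 with quantile normalization (0.13), library weights (0.23), the length trend removed (0.04) and without wild type replicate 1, knock-out replicate 1 or knock-out replicate 2 (0.28, 0.03, 0.08); Rpl7a with length (0.01) or length and GC removed (0.04); Rps27l with length removed (0.04). Without wild type replicate 1, where 7 of the 77 genes were higher in knock-out, the other named genes among them were Rpl21 (0.03), Rpl38 (0.02), Rps27 (0.13), Rps27l (0.10) and Rps28 (0.03), and with copies added as well Rps27 (0.13), Rps27l (0.10) and Rps28 (0.01). Over the fits leaving out 1 library, Rpl21 ran from -0.49 to 0.03, Rpl30 from -0.15 to 0.28, Rpl38 from -0.53 to 0.02, Rps27 from -0.53 to 0.13, Rps27l from -0.23 to 0.10 and Rps28 from -0.51 to 0.03. The cause was not tested. Correlations of deviations from the genotype mean were -0.108, -0.0551, 0.0241 and 0.144 between same-numbered libraries. Between libraries of different number they ran from -0.417 to 0.228. Deviations centred in groups of 4 are tied to each other, so these values cannot say whether same-numbered libraries were paired. A replicate block left 0 called and medians of -0.33 and -0.35. By coding length, Rpl24 had about 24.9 fragments in its lowest library and every other tested gene of the class at least 330. Adding copies was chosen after seeing the data.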
